A study of Mus musculus with 36 samples.

Results

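The microRNAs miR-10a and miR-10b were followed by small RNA sequencing through CD4 T cells cultured towards the T helper 2 (Th2) type. The 3 entries described are mmu-miR-10a-5p, mmu-miR-10a-3p and mmu-miR-10b-5p (below without the prefix for mouse), of 1966 mature miRNA names counted in each library, matched by name. They were chosen from earlier results of these data, in which they stood low in day 14 knockout cells, so day 14 levels are given as a description with no test.

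All cells came from C57BL/6J mouse spleen and were sorted as CD4+ TCRb+ T cells. The first experiment compared AGO134-/- cells, which lack Argonaute 1, 3 and 4 (below, knockout), with cells of wild-type (WT) littermates. Both genotypes were sampled at day 0 as naive cells (4 libraries each), after 7 days of Th2 culture (4 each) and after 14 days (3 each). The second experiment compared CD4Cre;R26LSLeYFP;AGO2f/f cells (AGO2 knockout) with CD4Cre;R26LSLeYFP cells (Cre), so that both groups carry the Cre transgene and the eYFP reporter allele. It held 4 AGO2 knockout and 3 Cre libraries of naive cells, and again 4 and 3 of Th2 cells. The time of these Th2 cells is day 5 by the labels of the samples, whereas the text of the series has day 7. Whether libraries of a group came from separate mice is not stated, so p-values measure the spread between libraries. miRNA counts do not report the Argonaute genes, so the genotypes were not checked by these data.

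Argonaute proteins hold mature miRNAs and bring them to target mRNAs, which are recognised mainly through the seed, bases 2 to 8 from the 5′ end. The 5p arm of the miR-10 hairpins is the usual guide strand, and the 3p arm is usually discarded. The miR-10 genes sit in Hox clusters. In mouse T cells miR-10a is known from regulatory T cells, where retinoic acid and TGF-beta induce it and it represses Bcl6.

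The mature sequences are shown because miR-10a-5p and miR-10b-5p share their seed and are nearly the same molecule, while the related miR-99/100 miRNAs have a shifted core and a different seed. Sequences and places are from RefSeq on GRCm38.p6, all on the + strand, with the seed in capitals.
miR-10a-5p: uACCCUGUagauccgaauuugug
miR-10b-5p: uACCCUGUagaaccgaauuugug
miR-10a-3p: cAAAUUCGuaucuaggggaaua
miR-99a-5p: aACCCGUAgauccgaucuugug
miR-99b-5p: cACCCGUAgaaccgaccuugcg
miR-100-5p: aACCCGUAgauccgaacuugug

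From the 5′ end, miR-10a-5p and miR-10b-5p differ by U12A, a single base among 23 and outside the seed. RefSeq matched 1675 of the 1966 names, and among these the seed ACCCUGU belonged to miR-10a-5p and miR-10b-5p alone. The seed ACCCGUA belonged to miR-99a-5p, miR-99b-5p and miR-100-5p. Bases 7 to 17 of miR-10a-5p recur as bases 6 to 16 of miR-100-5p, the longest run of 11 bases shared with that group. The sources used here do not say how mismatched reads were counted, so reads of miR-10a-5p and miR-10b-5p could be split between them, and the level of the rarer miR-10b-5p is uncertain for that reason.

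The Mir10a hairpin lies at chr11:96317165-96317274, and its 5p arm at chr11:96317186-96317208. It lies between Hoxb5 and Hoxb4 and starts 11044 bases after the end of Hoxb5, with the start of Hoxb4 993 bases beyond it (GENCODE annotation of the same build). The Mir10b hairpin lies at chr2:74726070-74726137, in introns annotated to Hoxd3 and Hoxd4. The hairpins are printed with the mature arms in capitals, to show that both arms of each were open to counting.
Mir10a: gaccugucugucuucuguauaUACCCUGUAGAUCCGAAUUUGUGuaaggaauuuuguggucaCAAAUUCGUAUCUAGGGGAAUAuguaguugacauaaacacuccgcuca
Mir10b: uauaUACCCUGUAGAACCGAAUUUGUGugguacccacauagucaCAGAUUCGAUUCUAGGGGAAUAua

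Levels are CPM, counts per 1000000 miRNA counts of a library. Libraries of the first experiment held 64264 to 273724 miRNA counts, and knockout libraries were shallower, with means of 143644, 172294 and 210699 at days 0, 7 and 14, against 223239, 255368 and 260868 in WT. A count of 0 allows up to 3 counts, or at most 46.7 CPM in these libraries. Entries named STD, which the labels do not explain, took 35.7% to 56.9% of a library and were left out. CD4 T cell marker miRNAs (6 of 6 detected in each group) summed to 127500 to 149213 CPM in knockout and 110073 to 116721 CPM in WT naive libraries, and to 45543 to 51019 CPM in knockout and 47442 to 49629 CPM in WT day 14 libraries. The sums hide changes of members. At day 14, 2 of 6 were called higher and 1 lower in knockout, against 8.9% and 10.7% of tested miRNAs. In naive cells 4 of 6 were called higher, against 8.12%. These calls are after TMM normalisation and depend on it. Scaled to the STD entries instead, 0 of all tested miRNAs were called higher in naive knockout cells, so none of the 4 naive calls held.

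miR-10a-5p was the main form, with 2494 counts over the 22 libraries of the first experiment. It ran low at day 7 in both genotypes and high at day 14 in WT cells. The order of the group means, from the lowest, was WT day 7, knockout day 7, knockout day 14, knockout naive, WT naive and WT day 14. In that order the ranges of neighbouring groups overlapped, except that the WT day 14 libraries lay above all other libraries.

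In naive cells miR-10a-5p stood at 296, 414, 400 and 140 CPM in knockout libraries 1 to 4, against 1120, 352, 346 and 362 CPM in WT libraries 1 to 4. WT library 1 was the highest of the naive libraries, and the other 3 WT libraries lay inside the knockout range. The lowest value, in knockout library 4, rested on 9 counts in the shallowest library of the experiment. The means were 313 ± 126 CPM in knockout and 545 ± 383 CPM in WT cells (SD, n = 4 each). The fitted log2 fold change was -0.43 (SE 0.29, adjusted p = 0.329, edgeR), and 18.3% of the 382 tested miRNAs were called in this comparison at an adjusted p under 0.05. Scaled to the STD entries it was -1.22 and called (adjusted p = 0.00789, edgeR), with the median of all tested miRNAs moved by -0.72, and -0.44 relative to that median. Without WT library 1 the WT mean was 353 ± 7.81 CPM (SD, n = 3), and the fold change turned to 0.12 (adjusted p = 0.753, edgeR).

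WT naive library 1 stood apart in other miRNAs as well, which were looked for after that value was seen. Among miRNAs with at least 10 counts there, 7, miR-10a-5p among them, exceeded 2 times the highest of the other 7 naive libraries, against 0 to 2 for each other naive library. miR-124-3p, known from neurons, had 23 counts there and 0 in the other naive libraries. miR-184-3p, known from epithelia of the eye and skin, stood at 542 CPM against at most 66.0 CPM elsewhere among naive libraries, and the muscle miRNA miR-1a-3p at 189 against at most 20.2 CPM. miR-100-5p, of the miR-99/100 group, was at 127 CPM against at most 45.8 CPM. The others were miR-7068-3p at 53.3 against at most 20.5 CPM and miR-8109 at 57.4 against at most 25.5 CPM. The epithelial marker list used below did not stand out, with sums of 3346 to 3795 CPM in WT and 2147 to 3931 CPM in knockout naive libraries. The part of the miRNAs high in WT naive library 1 in the miR-10a-5p value was not tested.

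At day 7 miR-10a-5p stood at 153, 147, 185 and 254 CPM in knockout libraries 1 to 4, against 186, 160, 166 and 179 CPM in WT libraries 1 to 4. The WT libraries lay within the knockout range, and knockout library 4 was the highest. The means were 185 ± 49.3 CPM in knockout and 173 ± 11.7 CPM in WT cells (SD, n = 4 each). The log2 fold change was 0.37 (SE 0.33, adjusted p = 0.516, edgeR), where 14.4% of tested miRNAs were called. Scaled to the STD entries it was -0.25 (adjusted p = 0.587, edgeR), a scaling that moved the median of all tested miRNAs by -0.61, and relative to that median it was 0.38. The interval of the ratio of summed counts, 1.04 (0.816 to 1.31, exact 95%, counting error only), leaves room for a change of either sign.

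At day 14 miR-10a-5p stood at 218, 343 and 361 CPM in knockout libraries 2, 3 and 4, against 1694, 1663 and 1622 CPM in WT libraries 1, 2 and 3. The groups did not overlap, and the WT libraries lay within a narrow band. The means were 307 ± 77.9 CPM in knockout and 1660 ± 36.2 CPM in WT cells (SD, n = 3 each). The counts behind them were 47, 61 and 86 in knockout and 449, 423 and 427 in WT libraries. The log2 fold change was -2.28 (SE 0.31), and -2.72 scaled to the STD entries, which moved the median by -0.44 (-2.29 relative to it). In this contrast, which the choice of members used, 19.6% of tested miRNAs were called. By mean CPM miR-10a-5p ranked 166th of the miRNAs in knockout and 89th in WT cells at day 14. Knockout library 2 was the lowest, and without it the fold change was -2.06. In bulk samples fewer cells carrying a miRNA and less of it per cell cannot be told apart.

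**Figure D1:**
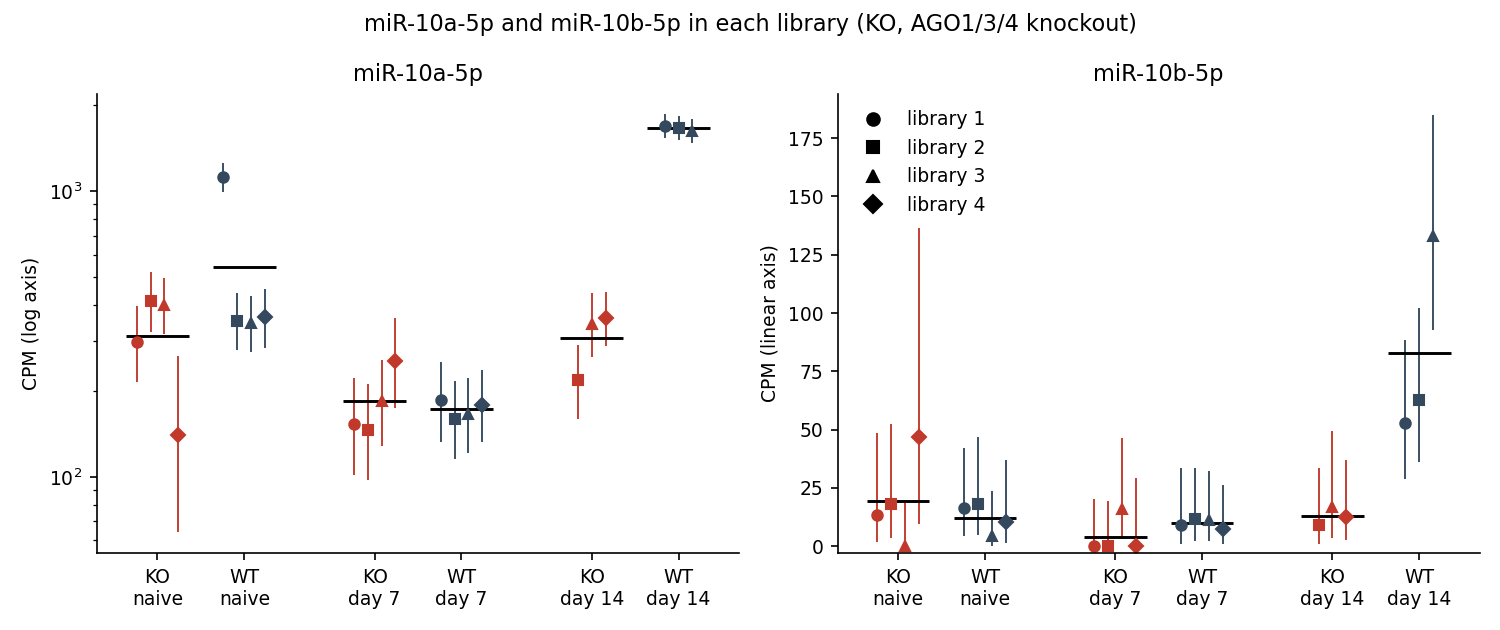
CPM of miR-10a-5p (left, log axis) and miR-10b-5p (right, linear axis) in each library of the first experiment, with exact 95% counting intervals and a black bar at each group mean; KO is the AGO1/3/4 knockout. The WT day 14 libraries sit at 1622 to 1694 CPM of miR-10a-5p, and WT naive library 1 stands above the other naive libraries.

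Over culture, miR-10a-5p fell between the naive stage and day 7 in both genotypes. In knockout cells the log2 fold change of day 7 over naive was -1.03 (SE 0.33, adjusted p = 0.00625, edgeR), and in WT cells it was -1.83 (SE 0.29, adjusted p = 1.59e-06, edgeR). Calls were common in these comparisons, with 34.3% of tested miRNAs lower in knockout and 36.9% lower in WT cells. Without WT naive library 1 the WT change was -1.28 (adjusted p = 5.05e-06, edgeR). Scaled to the STD entries, which moved the median of all tested miRNAs by 0.72 in knockout cells, the knockout change was -0.30 and not called (adjusted p = 0.508, edgeR). It was -1.10 relative to that median. The difference between the genotypes, knockout minus WT, was 0.80 (SE 0.44, adjusted p = 0.490, edgeR), with 2.36% of miRNAs called. It was 0.22 without WT naive library 1 (adjusted p = 0.878, edgeR).

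From day 7 to day 14, as a description, the log2 change of miR-10a-5p was 0.76 (SE 0.34) in knockout cells and 3.41 (SE 0.29) in WT cells. Both use the day 14 libraries that led to the choice of members. In summed counts the day 14 level was 0.882 times the naive level in knockout cells (0.720 to 1.08, exact 95%) and 2.95 times in WT cells (2.66 to 3.28). The intervals cover counting error only. Without WT naive library 1 the WT ratio was 4.71 (4.09 to 5.44).

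**Figure D2:**
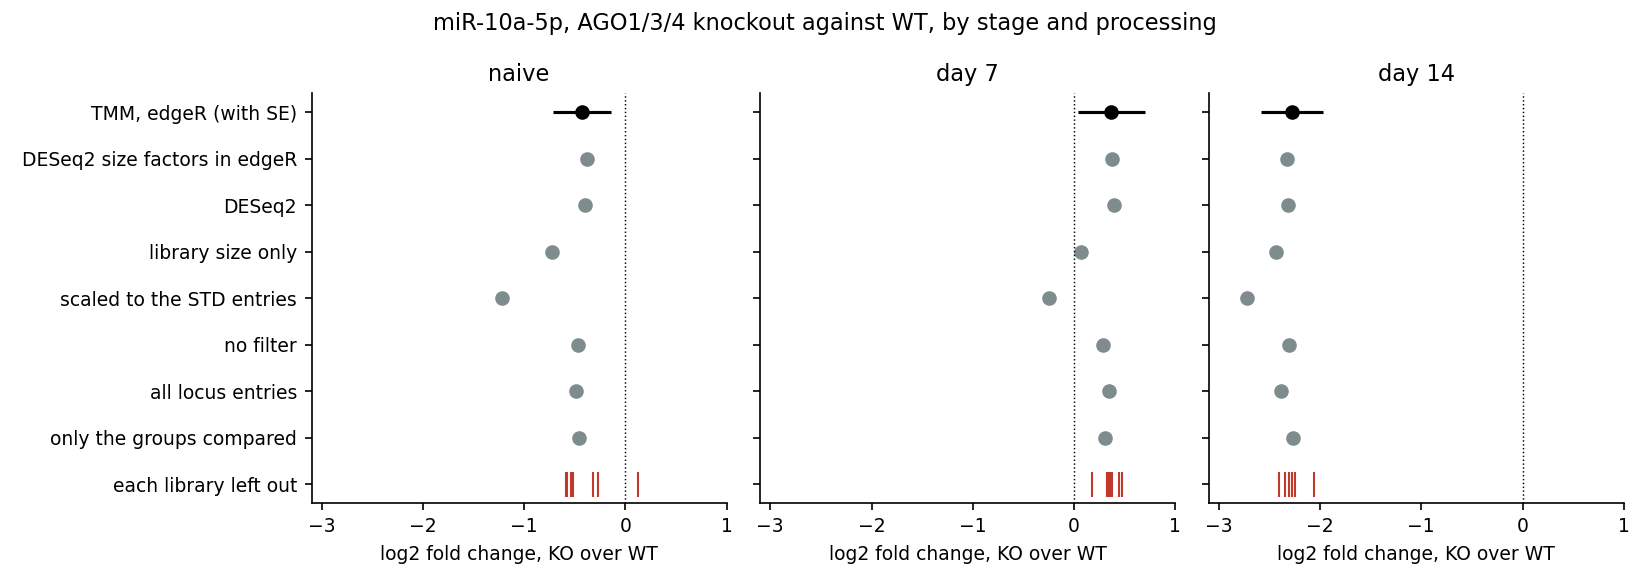
Log2 fold change of miR-10a-5p, knockout over WT, at 3 stages under each normalisation, filter or tool (grey points), with the TMM value and its SE in black and values with each library left out in turn as red ticks. The naive values lie below 0 except without WT naive library 1 (0.12). The day 7 values lie above 0 except when scaled to the STD entries (-0.25), and the day 14 values lie between -2.72 and -2.06.

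miR-10b-5p was rare, and its counts limit every statement about it. In day 14 cells it had 2, 3 and 3 counts in knockout libraries 2, 3 and 4, against 14, 16 and 35 counts in WT libraries 1, 2 and 3. These are 9.27, 16.9 and 12.6 CPM in knockout and 52.8, 62.9 and 133 CPM in WT libraries. The groups did not overlap, and WT library 3 was the highest. The ratio of summed counts, 8 in knockout to 65 in WT, was 0.152 after allowing for depth (0.0631 to 0.318, exact 95%, counting error only), and the fitted log2 fold change was -2.51 (SE 0.58).

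In naive cells miR-10b-5p had 2, 3, 0 and 3 counts in knockout libraries 1 to 4 and 4, 4, 1 and 2 counts in WT libraries 1 to 4. At day 7 it had 0, 0, 3 and 0 counts in knockout and 2, 3, 3 and 2 counts in WT libraries. It passed the filter on low counts only through the WT day 14 libraries, which led to its choice, so its level is described here with no test. At these earlier stages it lay at or near the level that a count of 0 allows. The fitted log2 fold changes were 0.46 (SE 0.79) in naive cells and -0.80 (SE 0.99) at day 7. The ratios of summed counts were 1.13 (0.395 to 3.09) in naive cells and 0.445 (0.0786 to 1.73) at day 7, so that differences within these intervals were not detectable at this depth. Day 7 over naive, the change was -1.74 in knockout cells (SE 1.02) and -0.48 in WT cells (SE 0.73). From day 7 to day 14 it was 1.43 (SE 1.02) in knockout and 3.15 (SE 0.52) in WT cells.

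The share of miR-10b-5p among both 5p forms does not depend on scaling. Pooled over libraries it was 3.85% in knockout and 2.14% in WT naive cells, 2.38% and 5.38% at day 7 in the same order of genotypes, and 3.96% in knockout and 4.77% in WT cells at day 14. The exact 95% intervals of the day 14 shares were 1.73% to 7.65% in knockout and 3.70% to 6.03% in WT cells, and they overlapped. Two-sided exact permutation tests of the share per library gave p = 0.457 for knockout against WT in naive cells and p = 0.143 at day 7. For day 7 against naive these permutation tests gave p = 0.371 in knockout and p = 0.0857 in WT cells. With 2 tests of the share of the 3p arm these made a family of 6, in which the adjusted values of these 4 ran from 0.429 to 0.686, and the smallest p that 4 against 4 allows is 0.0286. With 0 to 4 counts of miR-10b-5p per library, these tests had few counts to work on and are not read.

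The 3p arm of miR-10a, usually the discarded one, was close to absent. It had 16 counts in the first experiment. Of these, 2, 0 and 1 fell in day 14 knockout libraries 2, 3 and 4, against 5, 2 and 5 in WT libraries 1, 2 and 3, and the last in WT day 7 library 1. It did not pass the filter on low counts and was not fitted. Its share of both arms at day 14 was 1.52% in knockout (0.315% to 4.39%, exact 95%) and 0.915% in WT cells (0.474% to 1.59%). In naive cells 0 of 200 counts of both arms in knockout and 0 of 502 in WT cells were of the 3p arm, which allows shares of up to 1.5% and 0.598%. The 2 exact permutation tests of this share set 1 count in 1 library against a group at 0 and could not show a difference, so they are not read. miR-10b-3p had 1 count, in naive knockout library 1.

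The AGO2 experiment was shallower, with 596 to 58357 miRNA counts per library, and no form of miR-10 passed its filter. In Th2 cells miR-10a-5p had 10, 1, 9 and 15 counts in AGO2 knockout libraries D to G and 8, 16 and 9 counts in Cre libraries A to C. The means were 271 ± 137 CPM in AGO2 knockout (SD, n = 4) and 215 ± 66.2 CPM in Cre cells (SD, n = 3), and the ranges overlapped. The ratio of summed counts after allowing for depth was 1.42 (0.858 to 2.36, exact 95%, counting error only). miR-5099 took 11.8% to 52.3% of miRNA counts in AGO2 knockout and 9.85% to 13.5% in Cre Th2 libraries, and leaving it out, a choice made after seeing the data, gave a ratio of 1.57. Per STD count the ratio was 0.530, so that the direction depends on the scaling.

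In naive cells of that experiment miR-10a-5p had 4, 2, 1 and 1 counts in AGO2 knockout libraries and 0 in each Cre library. The Cre libraries held 11395 miRNA counts in all, where a count of 0 allows up to 263 CPM, above the pooled 181 CPM of the AGO2 knockout. A difference was thus not detectable at this depth. miR-10b-5p had 1 count in the whole experiment, in Cre Th2 library C.

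The related miR-99/100 miRNAs were read beside miR-10, and of these miR-99b-5p was the most abundant. miR-99b-5p stood at 17720 ± 3068 CPM in knockout and 23860 ± 1503 CPM in WT cells at day 14 (SD, n = 3 each). Its log2 fold change was -0.26 (SE 0.18, adjusted p = 0.323, edgeR) there, and 0.49 (SE 0.15, adjusted p = 0.0304, edgeR) at day 7, where it rose in knockout cells after TMM normalisation. That day 7 change was 0.18 by library size and -0.15 scaled to the STD entries, with no call under either (adjusted p = 0.409 and 0.522, edgeR). The day 14 change was -0.73 and called scaled to the STD entries (adjusted p = 0.0198, edgeR). Of the 6 miRNAs of the group, 3 passed the filter. Knockout over WT, 0 of these 3 were called in naive cells, 1 higher at day 7 and 1 lower at day 14, where over all tested miRNAs 18.3% were called in naive cells, 8.64% higher at day 7 and 10.7% lower at day 14. In naive cells miR-99a-5p and miR-99b-5p were called lower by library size (-0.71 and -0.45, adjusted p = 0.0346 and 0.0325, edgeR) and scaled to the STD entries (-1.16 and -0.89, adjusted p = 0.00277 and 0.000765, edgeR). Scaled to the STD entries miR-99b-3p was also called lower at day 7 (-1.01, adjusted p = 0.0445, edgeR). The one lower at day 14 was miR-99b-3p, with a log2 fold change of -1.14 (SE 0.29, adjusted p = 0.00481, edgeR), and it was lower and called under each scaling tried. The median log2 fold change of the 3 at day 14 was -0.93, against 0.01 over all tested miRNAs.

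miR-99a-5p, which shares bases 7 to 16 of miR-10a-5p as its bases 6 to 15, fell with culture in both genotypes. Its log2 change of day 7 over naive was -1.59 (SE 0.29, adjusted p = 1.48e-05, edgeR) in knockout and -1.85 (SE 0.22, adjusted p = 1.92e-08, edgeR) in WT cells. At day 14 it stood at 24.2 ± 15.4 CPM in knockout and 53.4 ± 30.7 CPM in WT cells (SD, n = 3 each). It thus lay lowest at the stage where miR-10a-5p lay highest in WT cells.

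The other miRNAs of the Hox clusters, miR-196a, miR-196b and miR-615, were close to absent. All 7 of their mature forms were counted in the libraries and 0 passed the filter. Their summed counts were 2, 0 and 0 in knockout naive, day 7 and day 14 cells, and 2, 1 and 2 in WT cells at these stages.

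miRNAs known from regulatory T cells were read beside miR-10a, which is known from the same cells. At day 14, 1 of 4 was called higher in knockout cells, where 8.9% of all tested miRNAs were. This was miR-31-5p, with a log2 fold change of 1.15 (SE 0.15, adjusted p = 1.07e-06, edgeR), or 0.70 with no call when scaled to the STD entries (adjusted p = 0.0770, edgeR). The other members, miR-146a-5p, miR-155-5p and miR-21a-5p, all well known in activated T cells, had day 14 changes of 0.18, -0.12 and 0.15 with adjusted p from 0.373 to 0.563 (edgeR). Of these, miR-155-5p was called lower at day 14 by library size (-0.30, adjusted p = 0.0493, edgeR) and scaled to the STD entries (-0.61, adjusted p = 0.00898, edgeR). In naive cells 2 of 4 and at day 7 3 of 4 were called higher in knockout cells, where 8.12% and 8.64% of all tested miRNAs were. At day 7 these were miR-146a-5p at 0.45, miR-155-5p at 0.52 and miR-21a-5p at 0.66 on the log2 scale (adjusted p = 0.0121, 0.00621 and 0.000998, edgeR). None of these 3 day 7 calls held by library size (0.14, 0.21 and 0.35) or scaled to the STD entries (-0.17, -0.12 and 0.02). The 2 naive calls were miR-146a-5p at 0.53 and miR-155-5p at 0.46, and neither held by library size (adjusted p = 0.154 and 0.332, edgeR). Scaled to the STD entries they were -0.26, with no call, and -0.35, called lower (adjusted p = 0.201 and 0.0403, edgeR). miR-21a-5p was then also called lower in naive cells (-0.55, adjusted p = 0.0112, edgeR). The median over the 4 at day 14 was 0.17.

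Markers of other cells were compared at day 14. The summed level of 6 endothelial and stromal miRNAs ran from 461 to 741 CPM in knockout and from 543 to 747 CPM in WT libraries. The 6 epithelial miRNAs summed to 575 to 742 CPM in knockout and 585 to 672 CPM in WT libraries. The 2 forms of the myeloid miRNA miR-223 summed to at most 4.63 CPM in knockout and 3.93 CPM in WT libraries, and the 4 red cell and platelet miRNAs to 171 to 315 CPM in knockout and 162 to 228 CPM in WT libraries. The ranges of each list overlapped between the genotypes, and at 0 over a group were 1, 1, 1 and 3 members of the endothelial and stromal, epithelial, myeloid and red cell lists in knockout, against 0, 0, 1 and 2 in WT cells. Their part in the day 14 difference was not tested.

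Over the 22 libraries of the first experiment, log2(CPM + 1) after TMM normalisation was correlated between each 5p form and the 380 other tested miRNAs, as a description. The 5 most like miR-10a-5p were miR-92b-3p (r = 0.81), miR-125a-5p (r = 0.75), miR-1981-3p (r = 0.70), let-7e-5p (r = 0.69) and miR-28a-3p (r = 0.69). These libraries share stages, genotypes and depth differences, and the values carry that structure. After removing group means, r was 0.32, 0.46, 0.32, -0.07 and 0.41 for these 5 in the same order. Without the WT day 14 libraries r was 0.66 for miR-92b-3p, 0.78 for miR-125a-5p and 0.33 for let-7e-5p.

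miR-125a and let-7e are encoded side by side with miR-99b, within 686 bases at chr17:17830194-17830879. miR-99b-5p itself ranked 17th by its likeness to miR-10a-5p (r = 0.55). let-7e-5p, whose reads may be shared within the near-identical let-7 family, stood at 5480 ± 678 CPM in knockout and 8801 ± 395 CPM in WT cells at day 14 (SD, n = 3 each). miR-125a-5p was at 8975 ± 1543 CPM in knockout and 11655 ± 316 CPM in WT cells at that stage. Both were picked by a likeness that used the day 14 libraries. These CPM are before TMM normalisation, and by library size the median log2 fold change of all tested miRNAs was -0.15 at day 14. miR-92b-3p, which shares its seed with the miR-92a form of the miR-17-92 cluster, was at 1702 ± 444 CPM in knockout and 2347 ± 185 CPM in WT cells, and its ranges overlapped. The day 14 log2 fold changes of let-7e-5p, miR-125a-5p and miR-92b-3p were -0.52 (SE 0.21), -0.21 (SE 0.15) and -0.31 (SE 0.17). Also among those most like miR-10a-5p, miR-1981-3p was at -0.64 (SE 0.23) and miR-28a-3p at 0.08 (SE 0.16). The -2.28 of miR-10a-5p was known when it was chosen, so the sizes are not compared. Differences between miRNAs were not tested.

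**Figure D3:**
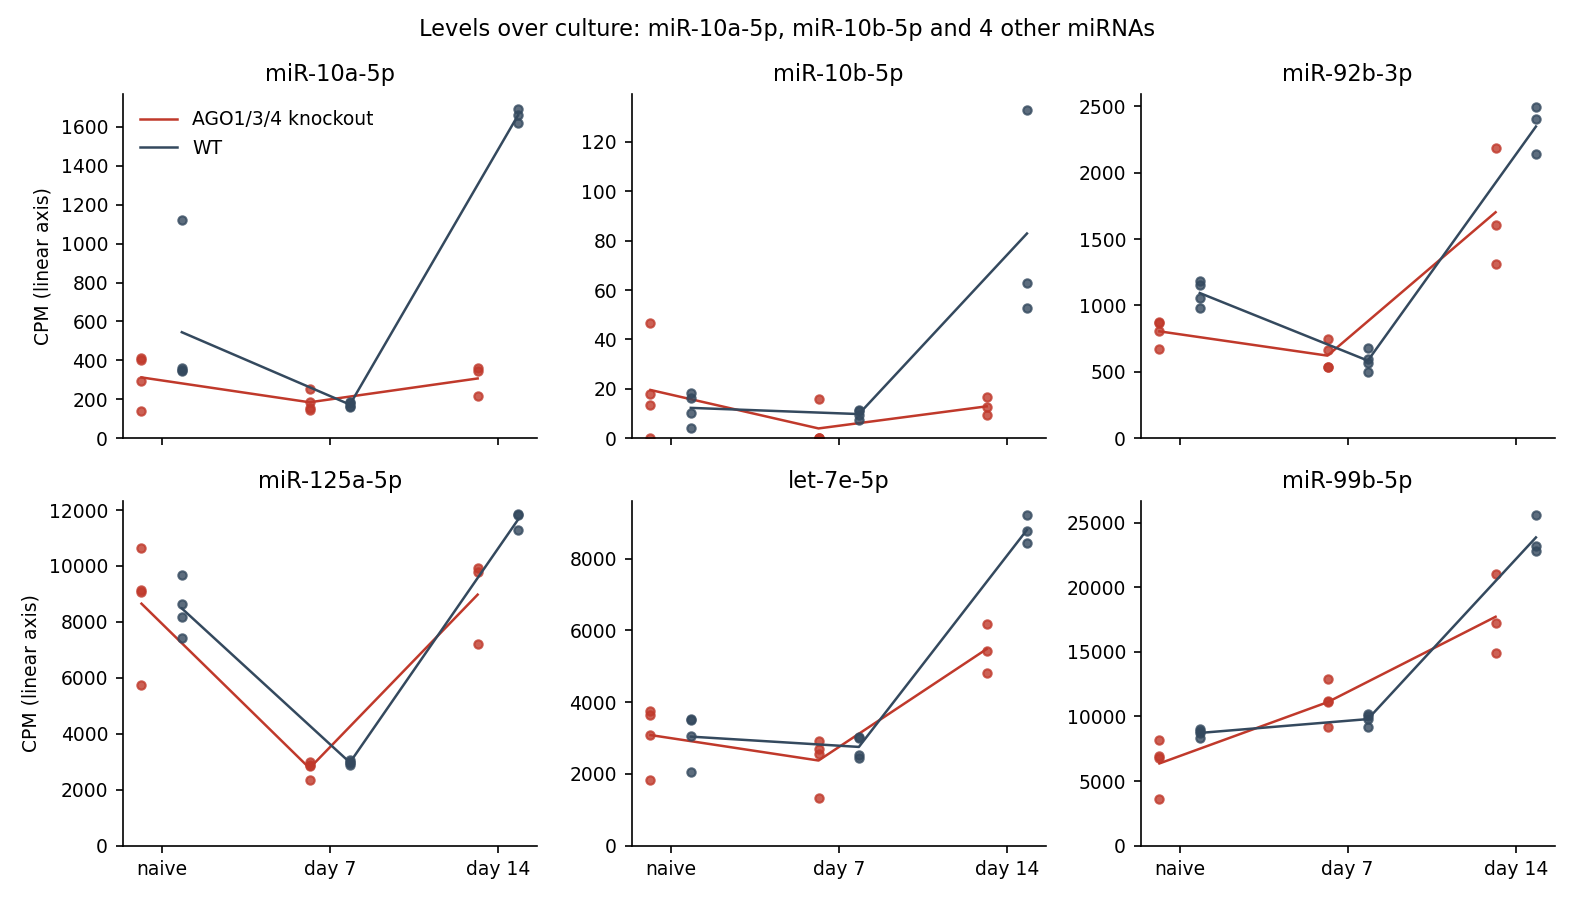
CPM (linear axes, each panel with its own scale) of miR-10a-5p, miR-10b-5p, 3 of the miRNAs most like miR-10a-5p and miR-99b-5p in naive, day 7 and day 14 cells, with a point per library and lines through the group means. miR-125a-5p falls and returns in both genotypes. At the naive stage, day 7 and day 14 the means of miR-10a-5p are 313, 185 and 307 CPM in knockout cells. In WT cells they are 545, 173 and 1660 CPM.

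Those most like miR-10b-5p were miR-92b-3p (r = 0.60), miR-23b-5p (r = 0.58), miR-504-5p (r = 0.58), miR-7059-5p (r = 0.52) and miR-125a-5p (r = 0.49). Without the WT day 14 libraries r was 0.38, 0.47, 0.38, 0.31 and 0.36 in the same order. After removing group means it was 0.34, 0.22, 0.16, 0.35 and -0.26. At day 14 the log2 fold change was -1.02 (SE 0.23) for miR-504-5p, -1.64 (SE 0.54) for miR-7059-5p and 0.39 (SE 0.33) for miR-23b-5p. miR-92b-3p and miR-125a-5p stand in both lists. miR-10a-5p and miR-10b-5p had r = 0.54 with each other, 0.19 without the WT day 14 libraries and -0.14 after removing group means. Their likeness therefore rested largely on the 3 WT day 14 libraries, and the sparse counts of miR-10b-5p limit it.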

How the data were processed

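The authors deposited whole-number counts per mature miRNA entry for each library, per the file headers. The genome build was GRCm38 per the submitters' processing notes, and the labels name a TruSeq kit on total RNA. The sources used here do not name the aligner, the counting tool or the release of the miRNA database. Each library had 2119 entries, of which 9 were named STD and were excluded, and for each of the 1966 mature names the entry with the highest total was used.

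Tests of counts used edgeR 4.0.16 (R 4.3.3) and its quasi-likelihood method (TMM, filterByExpr at a minimum of 10 counts, Benjamini-Hochberg adjustment over the tested miRNAs, called at an adjusted p under 0.05), with all groups of an experiment in the fit. DESeq2 1.42.0 and other settings were alternatives. Share tests were exact permutation tests in scipy 1.17.1. The fit was tested on simulated data. Intervals are exact 95% and, like floors of 3 counts, cover counting error only. Each level and change is relative to the remaining miRNAs of its library. In the 48 replicate pairs the lowest chi-square per degree of freedom was 1.88, so none counted as 1 library.

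The members, the lists and the tests were chosen with earlier results of these data known. The named miRNAs were the miR-10 forms, the Hox cluster, miR-99/100 and regulatory T cell lists, and the 5 most correlated with each 5p form. The miRNAs high in WT naive library 1, and miR-5099, were chosen after their values were seen.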

Additional observations from a re-analysis of the deposited data

Results flagged for a closer look

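In groups of 4, a value stood out when its gap to the nearest other exceeded 0.829 of the group's range (Dixon's 95% value). For normally spread values chance gives about 1 in 20 groups, and here 5 of 16 did. A group with counts in 1 library only always meets this rule, and a share uses the same counts as its CPM. The 5 of 16 is therefore not comparable with 1 in 20. miR-10a-5p in WT naive library 1 was at 1120 CPM, with the other 3 libraries at 346 to 362 CPM. The other 4 rest on 1 to 3 counts in a group otherwise at 0. They are miR-10b-5p at 15.8 CPM and its share of both 5p forms at 7.89% in knockout day 7 library 3, and miR-10a-3p at 4.65 CPM and its share of both arms at 2.44% in WT day 7 library 1.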

How the results depend on the processing

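Scaled to the STD entries, miR-10a-5p in knockout against WT was -1.22 (log2) in naive cells and called (adjusted p = 0.00789, edgeR), -0.25 at day 7 and -2.72 at day 14, and day 7 over naive in knockout was -0.30. miR-10b-5p turned to -0.23 in naive knockout against WT and to 0.10 in WT day 7 over naive, and the AGO2 knockout to Cre ratio to 0.530. The day 14 over day 7 change of miR-10a-5p in WT was 3.52 with DESeq2 size factors or DESeq2, 3.26 by library size, 3.21 by STD entries and 3.57 with all locus entries. On the log2 arm ratio with a pseudocount of 0.5, the miR-10a-3p difference was 0.12 for knockout against WT at day 7 and 1.64 for WT day 7 over naive. With 1 count of the 3p arm in these groups, both reflect the pseudocount over the 5p counts and are not read. STD scaling moved the median of tested miRNAs by -0.72, -0.61 and -0.44 in knockout against WT at the 3 stages. Relative to that median miR-10a-5p was -0.44, 0.38 and -2.29. Calls in knockout against WT were 31 higher and 39 lower in naive cells (TMM), 8 and 80 by library size, and 0 and 204 by STD entries; at day 7 they were 33 and 22, 4 and 43, and 1 and 128, and at day 14 34 and 41, 22 and 54, and 2 and 72.

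Leaving out each library gave -0.59 to 0.12 for miR-10a-5p and -0.045 to 1.07 for miR-10b-5p in naive knockout against WT; the sign turned without WT naive library 1 and without knockout naive library 4. For miR-10b-5p in knockout, day 7 over naive ran from -4.89 (without day 7 library 3) to -1.22, with -2.34 without naive library 3, and day 14 over day 7 ran from 1.01 to 4.63. Without day 7 library 3 that group is at 0, so those folds are no bounds, and no test of miR-10b-5p is read. Knockout against WT at day 14 ran from -2.41 to -2.06 for miR-10a-5p.

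Same-numbered libraries correlated at -0.24 to 0.14 after removing group means. Differently numbered libraries were not compared, so whether the numbers pair libraries was not settled. With a replicate block miR-10a-5p was -0.36, 0.31 and -2.38 in knockout against WT at the 3 stages, -1.08 in knockout and -1.64 in WT for day 7 over naive, with a difference of 0.61, and no call of miR-10a-5p changed; miR-10b-5p was not in all of these fits. The block moved called miRNAs at day 14 to 12, against 75, and knockout day 14 over day 7 to 113, against 171. Called miRNAs ran from 37 to 204 (70 in the main analysis) in naive cells, from 24 to 129 (55) at day 7, and from 1 to 15 (9) for the difference of culture changes. The AGO2 experiment's filter left no fit of a member.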
